A study of Mus musculus with 2 samples.

Results

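The 9 genes *Ncam1*, *Sez6*, *Sstr2*, *Cd276*, *Cd24a*, *Cd47*, *Cd9*, *Cd200* and *Cd200r1* encode proteins of the cell surface that serve as targets of tumor imaging or therapy, or that restrain immune cells. They were looked up by symbol among the 27998 genes of the count tables, and all 9 had UMIs (unique molecular identifiers, each marking 1 captured RNA molecule) in both tumors. Single cells of mouse small cell lung cancer came from 2 mice, 1 tumor each, with 1 10x Chromium library per tumor. Each level below therefore describes 1 tumor, and a difference between tumor 1 and tumor 2 has no replicate check.

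Both tumors carried the same engineered losses, Rb-/-, Trp53-/- and Rbl2-/- (TKO, for triple knockout), and a Rosa26 reporter coding for membrane-Tomato or membrane-GFP. The mice were of mixed C57BL/6, 129/SVJ and 129/SvOla background, aged 8 to 9 months, and had received Adeno-CMV-Cre 7 months earlier; the CMV promoter is not restricted to a cell type, so the virus does not fix the cell of origin. Live cells were sorted after red cell lysis, without selection for a tumor marker. A control tissue without tumor is not analysed here.

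Small cell lung cancer is a neuroendocrine carcinoma, whose cells resemble the hormone-secreting cells of the airway lining and carry adhesion and receptor proteins of neurons. *Ncam1* (CD56), a neural adhesion molecule, is used to diagnose it, and several such proteins are targets of antibodies or radioligands because other adult tissues carry little of them. A different group of surface proteins acts on the immune system: CD47 binds SIRPα on macrophages and holds back phagocytosis, CD24 acts on Siglec receptors in a like way, and CD200 binds the inhibitory receptor CD200R1 on myeloid cells.

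Of 4514 and 3816 barcodes, 3193 of tumor 1 and 3568 of tumor 2 had more than 500 detected genes and were retained, with a median of 1223 and 1960 UMIs per cell. The tables had 5285038 and 8291430 UMIs, and 11 retained barcodes occurred in both. Nearly all cells fell in clusters called neuroendocrine-like, 2993 cells in 8 clusters of tumor 1 and 3378 cells in 9 clusters of tumor 2, because markers such as *Chga* were higher there than in the macrophage-like cluster of the same tumor. A macrophage-like cluster of 95 cells in tumor 1 and 122 in tumor 2 held all 14 macrophage markers. A club-like cluster of 105 airway secretory cells was found in tumor 1. In tumor 2 the 68 cells of cluster 9 held club and neuroendocrine markers together and were left unnamed, so club-like levels are available for tumor 1. The name of the neuroendocrine-like class is not equally good for all its clusters: clusters 2 and 4 of tumor 1 had ciliated or fibroblast markers among their 10 leading genes, and clusters 0 and 7 of tumor 2 an endothelial or ciliated marker, so levels are given by cluster as well as pooled. The macrophage-like cluster also held lymphocytes or their RNA, since 11 of its 95 cells in tumor 1 and 31 of 122 in tumor 2 had a UMI of a T, B or NK cell marker. A UMI of a neutrophil marker was found in 27 of the 95 cells in tumor 1 and 14 of the 122 in tumor 2. The levels given for this class are therefore those of a mixed cluster.

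Levels are given as CPM, the UMIs of a gene scaled to a total of 1e6 UMIs over the cells summed, with exact Poisson 95% intervals that cover counting error only. Ratios are log2 of tumor 1 CPM over tumor 2 CPM with an exact binomial 95% interval. Since the median log2 ratio over the 12923 genes tested (at least 10 UMIs) was 0.37, ratios called relative are less that median. The share of UMIs from ribosomal protein genes was 10.7% in tumor 1 and 23.1% in tumor 2. A gene was called higher at 2-fold after this centring, with no test.

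Among the 9 genes, 3 were called higher in tumor 1 (*Cd200*, *Cd9* and *Cd47*), beside 23.2% of all genes tested, and 3 were called higher in tumor 2 (*Cd200r1*, *Cd276* and *Sstr2*), beside 18.7% of all genes. *Cd24a*, *Ncam1* and *Sez6* stayed within 2-fold. Of the genes whose products restrain immune cells, the ligands *Cd200* and *Cd47* were on the side of tumor 1, the checkpoint gene *Cd276* and the receptor *Cd200r1* on that of tumor 2, and *Cd24a* was within 2-fold. Over the neuroendocrine-like clusters, the CPM ranges of the 2 tumors did not overlap for 4 of the 9 genes, which were higher in tumor 1 (10.6% of all genes) and for 0 that were higher in tumor 2 (4.76% of all genes).

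**Figure D1:**
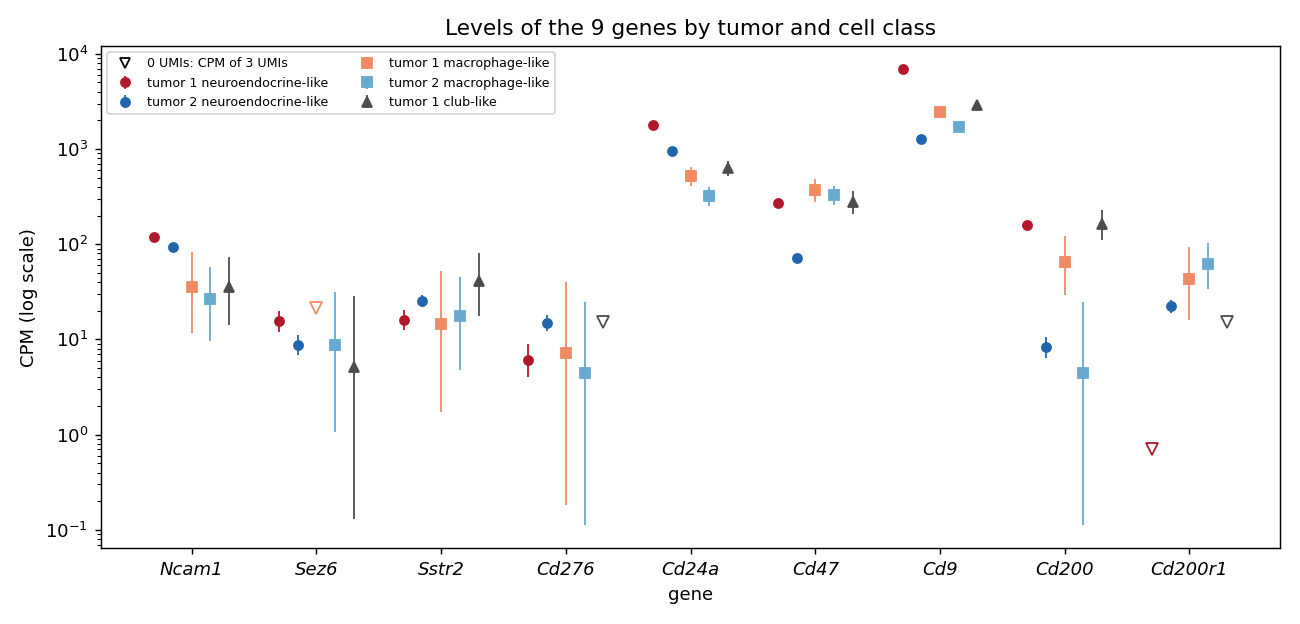
CPM of the 9 genes (log axis) in neuroendocrine-like and macrophage-like cells of both tumors and in club-like cells of tumor 1. Points are summed levels with exact Poisson 95% intervals, and open triangles stand at the CPM of 3 UMIs for groups with 0 UMIs. *Cd200* stood at 159 CPM in tumor 1 and 8.26 CPM in tumor 2, and *Cd200r1* at 0 and 22.3 CPM.

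*Ncam1* (chr9:49502136-49798925, minus strand, mm10) was the target most evenly held by the tumors. Its level in neuroendocrine-like cells was 120 CPM (95% interval 110 to 131, 508 UMIs) in tumor 1. In tumor 2 it was 92.8 CPM (86.1 to 99.8, 719 UMIs). The log2 ratio was 0.37 (0.21 to 0.54) and the relative ratio 0.00, so the gene moved as the median gene did. Without the clusters led by markers of another type the relative ratio was 0.27. Clusters spread it more than tumors did, from 76.8 CPM in cluster 7 to 180 CPM in cluster 1 of tumor 1, and from 51.2 CPM in cluster 3 to 192 CPM in cluster 7 of tumor 2. In macrophage-like cells 5 and 6 UMIs gave 35.9 CPM (11.7 to 83.8) and 26.4 CPM (9.68 to 57.4).

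*Sez6* (chr11:77930800-77979048, plus strand), a neuronal membrane protein and target of an antibody-drug conjugate, was sparse in both tumors. Its level was 15.6 CPM (12.1 to 19.9, 66 UMIs) in tumor 1, compared with 8.77 CPM (6.81 to 11.1, 68 UMIs) in tumor 2. The log2 ratio before centring was 0.83 (0.32 to 1.34). The relative log2 ratio of 0.46 had an interval of -0.05 to 0.97, so at this depth counting error alone could give this relative ratio. Its paralogs on the list of surface targets stood further apart: *Sez6l2* was at 59.6 CPM in tumor 1 and 8.39 CPM in tumor 2, and *Sez6l* had 17 UMIs in tumor 1 and 0 in tumor 2.

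*Sstr2* (chr11:113619342-113626028, plus strand), the somatostatin receptor addressed by radioligands such as DOTATATE, was at 16.1 CPM (12.5 to 20.4, 68 UMIs) in tumor 1. It was at 25.3 CPM (21.9 to 29.1, 196 UMIs) in tumor 2. Its relative log2 ratio of -1.02 (-1.44 to -0.62) sat at the edge of the 2-fold call, and it was -0.65 with no centring. The related receptor *Sstr5* went the other way, with 81 UMIs (19.1 CPM) in tumor 1 and 4 UMIs (0.516 CPM) in tumor 2. *Sstr1*, *Sstr3* and *Sstr4* had at most 6 UMIs in either tumor. Of the ligands, *Sst* had 0 UMIs in both, and *Cort*, which codes for cortistatin, had 0 UMIs in tumor 1 and 37 in tumor 2. *Sstr2* was also found in the club-like cells of tumor 1, where 8 UMIs gave 40.7 CPM (17.6 to 80.2).

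*Cd276* (chr9:58524298-58555437, minus strand), which codes for the checkpoint protein B7-H3, was higher in tumor 2. It was at 6.15 CPM (4.01 to 9.01, 26 UMIs) in tumor 1, compared with 15.0 CPM (12.4 to 18.0, 116 UMIs) in tumor 2, with a relative log2 ratio of -1.65 (-2.33 to -1.03). The 2 ranges over clusters, 1.99 to 12.4 CPM and 6.82 to 18.3 CPM, overlapped. Macrophage-like cells of each tumor had 1 UMI of it.

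*Cd24a* (chr10:43578284-43584265, plus strand) codes for CD24, a small sugar-coated protein of epithelial and neural progenitor cells. It was abundant in both tumors, at 1806 CPM (1766 to 1847, 7640 UMIs) in tumor 1, compared with 965 CPM (943 to 987, 7480 UMIs) in tumor 2. The relative log2 ratio was 0.54 (0.49 to 0.58), under the 2-fold call. Even so, its lowest cluster in tumor 1, at 1709 CPM, lay above its highest in tumor 2, at 1302 CPM. Within tumor 1 the clusters differed by 1.18 times, the narrowest spread of the 9 genes in that tumor among those with UMIs.

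*Cd47* (chr16:49800533-49915010, plus strand) was at 269 CPM (253 to 285, 1136 UMIs) in tumor 1. It was at 71.1 CPM (65.3 to 77.3, 551 UMIs) in tumor 2, a ratio of 3.78-fold and a relative log2 ratio of 1.55 (1.40 to 1.70). All 8 clusters of tumor 1 were between 230.5 and 321.5 CPM, and all 9 clusters of tumor 2 between 51.5 and 105 CPM. *Qpctl*, the enzyme that modifies CD47 for its binding to SIRPα, was at 11.6 CPM in tumor 1 and 7.10 CPM in tumor 2, a relative log2 ratio of 0.34. *Thbs1*, whose secreted product also binds CD47, was at 74.0 CPM in tumor 1 and 5.55 CPM in tumor 2.

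*Cd200* (chr16:45382135-45409053, minus strand) showed the largest ratio among the members with UMIs in both tumors. It was at 159 CPM (147 to 171, 672 UMIs) in tumor 1, compared with 8.26 CPM (6.36 to 10.5, 64 UMIs) in tumor 2, 19.2-fold apart, with a relative log2 ratio of 3.90 (3.53 to 4.29). The lowest cluster of tumor 1, cluster 6, held 68.5 CPM and the highest of tumor 2, cluster 0, held 20.9 CPM. The 12 genes tested within 1000 kb of *Cd200* had a median relative log2 ratio of -0.09. Of them 3 were called higher in tumor 1 and 4 in tumor 2, beside 23.2% and 18.7% of all genes. *Cd200r1* and its relative *Cd200r4* are among those higher in tumor 2. Around *Cd47*, 5 genes were tested (median -0.30, 2 higher in tumor 1 and 0 in tumor 2). Around *Cd9*, 37 genes were tested (median 0.62, 13 higher in tumor 1 and 5 in tumor 2).

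*Cd9* (chr6:125460266-125494791, minus strand) codes for a tetraspanin, a protein that organizes other membrane proteins into patches. It was at 6887 CPM (6809 to 6967, 29139 UMIs) in tumor 1, compared with 1261 CPM (1236 to 1286, 9773 UMIs) in tumor 2, 5.46-fold apart, with a relative log2 ratio of 2.08 (2.05 to 2.11). Clusters of tumor 1 ran from 5403 to 9392 CPM. Clusters of tumor 2 ran from 205 CPM in cluster 3 to 3676 CPM in cluster 0, a spread of 17.9 times, and fell in 2 sets: clusters 0, 6, 5 and 4 at 3676, 2393, 1641 and 1428 CPM, and clusters 10, 7, 1, 2 and 3 at 430, 420, 332, 324 and 205 CPM.

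**Figure D2:**
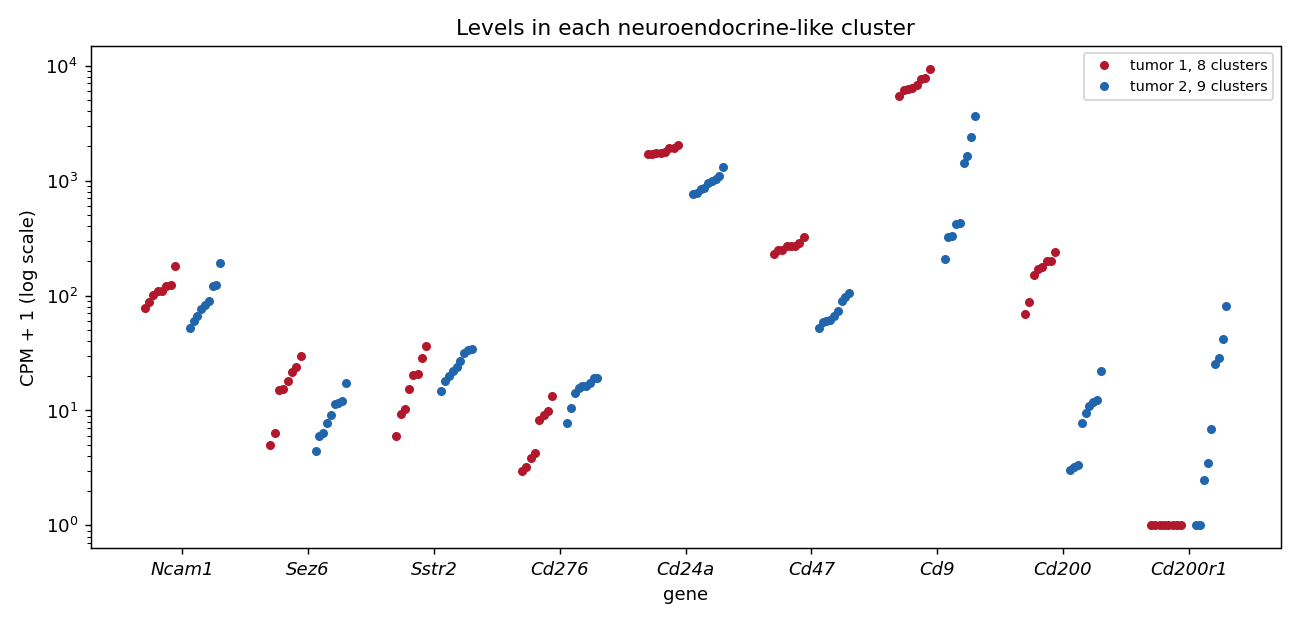
CPM plus 1 (log axis) of each gene in each neuroendocrine-like cluster, 1 point per cluster in order of level, with the 8 clusters of tumor 1 at the left and the 9 clusters of tumor 2 at the right of each gene. *Cd24a*, *Cd47*, *Cd9* and *Cd200* have separate ranges, and *Cd9* and *Cd200r1* spread widely over the clusters of tumor 2.

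*Cd200r1* (chr16:44765736-44794978, plus strand), the receptor of CD200, was at 0 UMIs over all 2993 neuroendocrine-like cells in tumor 1, which allows up to 0.709 CPM at 3 UMIs. In tumor 2 the neuroendocrine-like cells held 173 UMIs, 22.3 CPM (19.1 to 25.9). Against the 3 UMIs allowed in the summed cells of tumor 1 this is 31.5-fold higher in tumor 2 on the CPM scale, and the nearer edge of the exact 95% interval puts it at least 25.3-fold higher. The relative log2 ratio at this floor was -5.34, and -3.83 with cells of more than 1000 detected genes, where fewer UMIs are summed. Its highest levels were 79.6 CPM in cluster 0, 41.2 in cluster 5, 27.6 in cluster 4 and 24.3 in cluster 6, the same 4 clusters that were high in *Cd9*. The other 5 clusters of tumor 2 held 0 to 5.96 CPM. Without the clusters led by markers of another type, cluster 0 among them, the level in tumor 2 was 14.8 CPM.

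The macrophage-like cells, in which this receptor is known, held 43.1 CPM (15.8 to 93.8, 6 UMIs) in tumor 1, compared with 61.6 CPM (33.7 to 103, 14 UMIs) in tumor 2. The 132 neuroendocrine-like cells of tumor 2 with a *Cd200r1* UMI had 21.2 CPM over the 14 macrophage markers, and the 3246 without one had 13.9 CPM. Macrophage-like cells of the same tumor held 36750.3 CPM of these markers. The UMIs were spread over cells: 99 cells had 1 UMI, 33 had more, and no cell had over 4.

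The mouse genome carries relatives of the receptor next to it. *Cd200r4* (an activating relative, read through an adaptor protein) had 1 UMI in neuroendocrine-like cells of tumor 1 and 35 UMIs (4.52 CPM) in tumor 2, of which 20 were in cluster 0. *Cd200r2* and *Cd200r3* had 0 UMIs in these cells of both tumors. Reads of *Cd200r1* and *Cd200r4* could be split wrongly where their transcripts are alike. In GENCODE transcripts, 40 of 3439 different 50-base words of *Cd200r1* also occurred in *Cd200r4*, and 0 of the 1019 words of the last 500 bases, where a 3′ library reads, did. Macrophage-like cells held 71.8 and 74.7 CPM of *Cd200r4*.

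Seen together, ligand and receptor were arranged differently in the 2 tumors. In tumor 1 *Cd200r1* was found in macrophage-like cells, in 4 of 95, and in no neuroendocrine-like or club-like cell. *Cd200* was found in neuroendocrine-like and club-like cells of tumor 1, and also in 7 of the 95 macrophage-like cells, at 64.6 CPM (29.6 to 123, 9 UMIs). In tumor 2 little *Cd200* was found, and *Cd200r1* was found in both classes. At 1000 UMIs per cell, 1 cell of tumor 2 held UMIs of both, where the product of their shares gives 0.740 cells.

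The *Cd9*-high clusters of tumor 2 were also higher in other genes. Over the 9 clusters, log2(CPM + 10) of *Cd9* went with that of *Cd200r1* (Pearson r = 0.91), *Cd24a* (r = 0.89) and *Cd200* (r = 0.87), and less with *Cd47* (r = 0.39) or *Ncam1* (r = -0.15). These clusters come from 1 library and share its depth, and *Cd200* had 22 UMIs in cluster 0 and at most 10 in any other. Over the 8 clusters of tumor 1, r of *Cd9* was 0.52 with *Cd200*, 0.58 with *Cd47*, -0.32 with *Cd24a* and -0.43 with *Ncam1*. *Krt8*, a keratin of simple epithelia, was chosen after its values were seen. It stood at 366 to 854 CPM in the 4 *Cd9*-high clusters of tumor 2 and at 17.9 to 75.0 CPM in the other 5. Median depth was 1378 UMIs per cell in cluster 0 and 1782 to 2972 in the other clusters.

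Cells of these clusters were also pooled and grouped by their own *Cd9* UMIs at fixed depth. The cluster was not held fixed, so the shares below can restate the differences between clusters. The neuroendocrine-like cells of tumor 2 with at least 1000 UMIs, 3017 in number, were thinned to 1000 UMIs each. *Cd200r1* was found in 9 of 1504 cells with no *Cd9* UMI, 0.598% (exact Clopper-Pearson 95% interval 0.274 to 1.13). It was found in 34 of 408 cells with 4 or more *Cd9* UMIs, 8.33% (5.84 to 11.5). *Cd200* went from 0.332% to 3.19%, *Cd47* from 5.32% to 12.3% and *Cd24a* from 55.5% to 67.4% of cells between the same groups. *Ncam1* did not follow, at 8.91% and 7.11%. By cluster at this depth, *Cd9* was found in 88.0% and *Cd200r1* in 7.14% of cells of cluster 0. In cluster 3 they were found in 16.8% and 0.295% of cells. Whether the genes go together within a cluster was not tested.

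**Figure D3:**
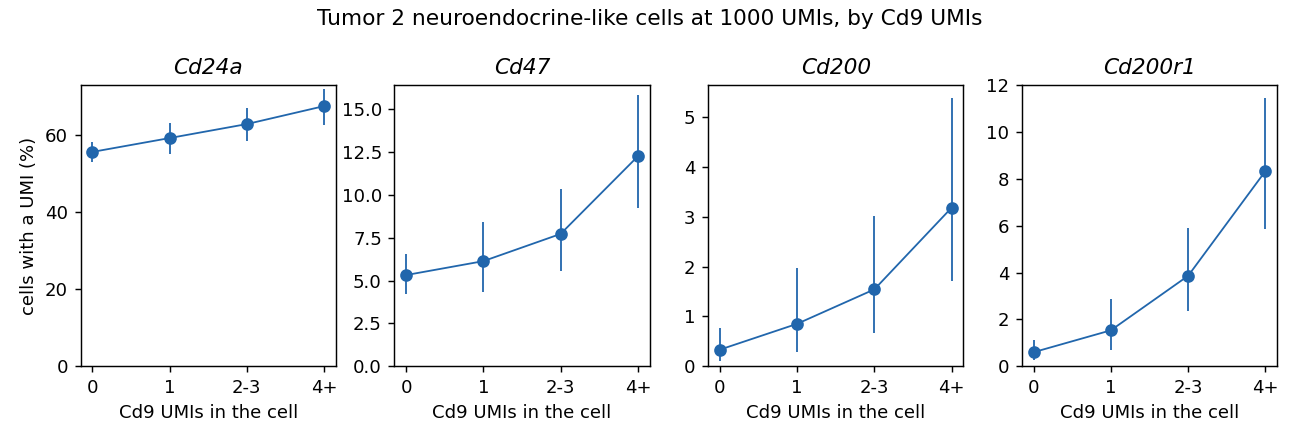
Share of tumor 2 neuroendocrine-like cells with a UMI of *Cd24a*, *Cd47*, *Cd200* or *Cd200r1* (vertical axis, percent, a separate scale per panel) by the *Cd9* UMIs of the cell after thinning to 1000 UMIs. Bars are exact 95% intervals for counting error, and *Cd200r1* goes from 0.598% to 8.33%.

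*Cd9* and *Cd200* were both higher in tumor 1 and went together over the clusters of tumor 2, there on 64 *Cd200* UMIs in all. The bases before their annotated starts are therefore shown (RefSeq, GRCm38.p6, where 5 of the 9 genes had an entry). GC boxes, GGGCGG or CCGCCC on the printed strand, are in capitals, and the E-box CAGCTG was also searched.
Cd9, chr6:125494792-125495010, minus strand: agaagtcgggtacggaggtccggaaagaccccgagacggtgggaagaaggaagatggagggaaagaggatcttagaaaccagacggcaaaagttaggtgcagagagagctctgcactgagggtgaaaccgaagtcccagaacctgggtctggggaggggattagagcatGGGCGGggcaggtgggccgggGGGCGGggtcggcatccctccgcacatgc
Cd200, chr16:45409054-45409303, minus strand: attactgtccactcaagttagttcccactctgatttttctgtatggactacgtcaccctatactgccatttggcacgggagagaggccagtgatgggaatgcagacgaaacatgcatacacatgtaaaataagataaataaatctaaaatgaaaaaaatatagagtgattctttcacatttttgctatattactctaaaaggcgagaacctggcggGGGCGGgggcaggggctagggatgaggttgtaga
The 219 bases of *Cd9* held 2 GC boxes and the 250 bases of *Cd200* held 1, a motif found in 32.7% of 32851 promoter windows of 250 bases. The E-box was in 13.0% of these windows and in neither of the 2 shown. These matches describe letters in the genome and were not measured in the tumors.

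Shares of cells with a UMI were compared at fixed depth, since a deeper cell shows more genes, and they do not count the cells that carry a target. Of 2152 neuroendocrine-like cells of tumor 1 thinned to 1000 UMIs, 9.76% (8.54 to 11.1) had an *Ncam1* UMI, and of 3017 of tumor 2, 8.09% (7.14 to 9.12). Macrophage-like cells, which are not known for it, had one in 2 of 80 and 3 of 113 cells, with median depths before thinning of 1433 and 1750 UMIs against 1393 and 2106 in the neuroendocrine-like cells. *Sstr2* was found in 1.95% and 2.62% of neuroendocrine-like cells, *Sez6* in 1.49% and 0.729%, and *Cd276* in 0.743% and 1.26%. For *Sez6*, *Sstr2* and *Cd276* the intervals of the macrophage-like shares, which reach 3.21% or more, cover these values, so the shares cannot be told from background in single cells. Cells below 1000 UMIs, 841 and 361 neuroendocrine-like cells, were left out. Without thinning the *Ncam1* shares were 13.5% and 16.8%, in the opposite order.

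Any of the 4 targets was found in 13.7% (12.2 to 15.2) of tumor 1 cells, compared with 12.3% (11.2 to 13.6) in tumor 2, and 2 of them together in 6 and 11 cells. In macrophage-like cells any of the 4 was found in 5 of 80 cells of tumor 1, 6.25% (2.06 to 13.99), and in 4 of 113 of tumor 2, 3.54% (0.973 to 8.82), so the combined share of tumor 1 cannot be told from this background either. No cell had UMIs of 3, which allows up to 0.139% and 0.0994% of cells. *Ncam1* and *Sstr2* shared 2 cells in tumor 1 and 6 in tumor 2, where the product of their shares gives 4.10 and 6.39.

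UMIs of *Cd24a*, *Cd47* and *Cd200* were found in a larger share of neuroendocrine-like cells in tumor 1 than in tumor 2. The checkpoint gene *Cd276* did not follow, at 0.743% and 1.26%, shares that cannot be told from background. *Cd24a* was found in 79.4% (77.6 to 81.1) and 59.1% (57.3 to 60.8) of cells, *Cd47* in 21.1% (19.4 to 22.9) and 6.83% (5.95 to 7.79), and *Cd200* in 13.2% (11.8 to 14.7) and 1.03% (0.699 to 1.46). The shares in macrophage-like cells were 26.2% (17.0 to 37.3) and 19.5% (12.6 to 28.0) for *Cd24a*, and 4 of 80 (1.38% to 12.3%) and 0 of 113 (up to 3.21%) for *Cd200*, so the *Cd200* share of tumor 2 cannot be told from background. Both *Cd47* and *Cd200* were found in 67 cells of tumor 1, 3.11%, where the product of their shares gives 60.0 cells. In tumor 2 they were found together in 2 cells, 0.0663%. *Cd9* was found in 99.1% (98.6 to 99.5) of tumor 1 cells, compared with 50.1% (48.3 to 51.9) in tumor 2.

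**Figure D4:**
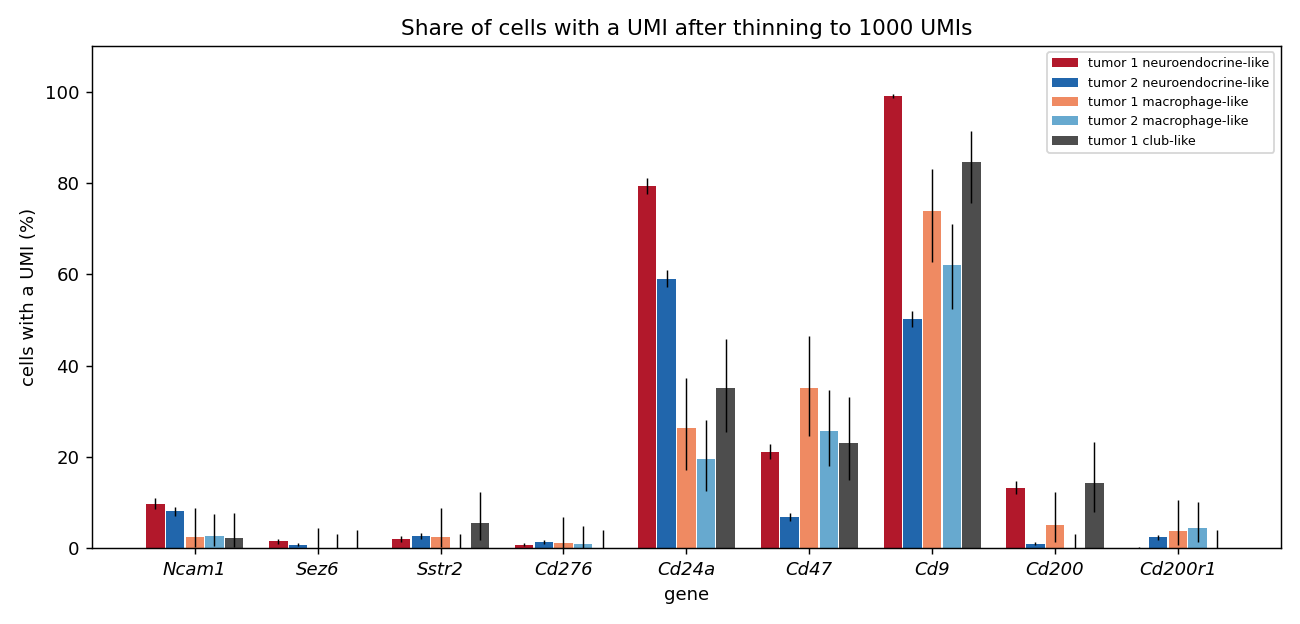
Percent of cells with a UMI of each gene after thinning to 1000 UMIs per cell, by tumor and cell class, with exact Clopper-Pearson 95% intervals. *Cd9* was found in 99.1% of neuroendocrine-like cells of tumor 1 and 50.1% of tumor 2, and *Cd47* in a larger share of macrophage-like than of neuroendocrine-like cells in both tumors.

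In macrophage-like cells, *Cd47* was at 374 CPM (279 to 490, 52 UMIs) in tumor 1, compared with 325 CPM (256 to 409, 74 UMIs) in tumor 2. Compared with neuroendocrine-like cells of the same tumor this was 139% of their level in tumor 1 and 458% in tumor 2, since the neuroendocrine-like level was lower in tumor 2. At fixed depth 35.0% and 25.7% of macrophage-like cells had a *Cd47* UMI. *Sirpa*, which codes for the receptor of CD47, was at 187 and 154 CPM in macrophage-like cells and had 1 and 6 UMIs in neuroendocrine-like cells.

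*Cd9* differed in direction between the tumors in this comparison. Macrophage-like cells held 2435 CPM (2183 to 2709) in tumor 1, 35.4% of the neuroendocrine-like level, and 1710 CPM (1545 to 1889) in tumor 2, 136% of it. *Cd24a* was at 517 CPM and 321 CPM in macrophage-like cells, 28.6% and 33.3% of the neuroendocrine-like level. UMIs of neuroendocrine markers were also found in this class: the 14 markers had a median of 16.7% of their neuroendocrine-like level there in tumor 1, with a range of 0 to 117%, and 33.6% in tumor 2, with a range of 12.5% to 209%. *Cd9*, *Cd24a*, *Ncam1* (29.9% and 28.4%) and *Cd200* (40.7% and 53.3%) lay within these ranges, and the part of such RNA in their levels was not tested. In macrophage-like cells *Cd200* rested on 9 UMIs in tumor 1 and 1 UMI in tumor 2, and *Ncam1* on 5 and 6 UMIs.

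Over the comparison of macrophage-like with neuroendocrine-like cells, 0 of 8 members tested in tumor 1 were called higher, beside 27.1% of all genes. This count leaves out *Cd200r1*, which had too few UMIs in tumor 1 to be tested. It had 6 UMIs (43.1 CPM, 15.8 to 93.8) in macrophage-like cells of tumor 1 and 0 UMIs in neuroendocrine-like cells. Of the 8 members tested, 4 were called lower (*Cd24a*, *Ncam1*, *Cd9* and *Cd200*), beside 22.8% of all genes. In tumor 2, 2 of 9 were called higher (*Cd47* and *Cd200r1*), beside 29.2% of all genes, and 3 lower (*Ncam1*, *Cd276* and *Cd24a*), beside 19.7%. Of the lower ones, *Cd276* rested on 1 UMI. With cells of more than 1000 detected genes, the relative log2 ratio of *Cd200r1* in tumor 2 was 0.21 against 1.48, and it was not called.

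In the club-like cells of tumor 1, which make secretoglobins and line the airway, *Cd47* and *Cd200* stood at the level of the neuroendocrine-like cells. *Cd47* was at 275 CPM (206 to 358), 102% of it. *Cd200* was at 163 CPM (111 to 230, 32 UMIs), 102% of it, where the 14 neuroendocrine markers had a median of 29.1% and at most 54.3%. *Cd9* was at 2929 CPM (2694 to 3178), 42.5% of the neuroendocrine-like level, and *Cd24a* at 630.5 CPM (524 to 752), 34.9% of it. Both lay within the range of the neuroendocrine markers in this class, 0 to 54.3%. The part of RNA from neuroendocrine-like cells in their levels was not tested. *Cd276* and *Cd200r1* had 0 UMIs, which allows up to 15.3 CPM. The unnamed cluster 9 of tumor 2, which held club markers, had 63.4 CPM (27.4 to 125, 8 UMIs) of *Cd200* and 5517 CPM (5115 to 5943) of *Cd9*, above every neuroendocrine-like cluster of that tumor.

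Proliferating cells were defined as neuroendocrine-like cells with at least 2 UMIs of 8 proliferation markers such as *Mki67* after thinning, 306 cells of tumor 1 and 1076 of tumor 2. *Cd9* was lower in them in both tumors, at 5148 against 7022 CPM and 901 against 1434 CPM. Its relative log2 ratios, -0.40 and -0.65, were under the 2-fold call. The cluster was not held fixed, so the values of this paragraph can restate differences between clusters. Clusters 2 and 6 of tumor 2, both with proliferation markers among their leading genes, held 324 and 2393 CPM of *Cd9*. *Cd200* of tumor 1 was at 87.9 CPM (55 UMIs) in proliferating and 165 CPM in other cells, a relative log2 ratio of -0.87 whose interval before centring was -1.34 to -0.51. *Cd200r1* of tumor 2 was at 12.8 and 27.8 CPM. *Sez6* went the other way, at 30.3 CPM (19 UMIs) against 13.9 CPM in tumor 1 and 10.8 against 6.38 CPM in tumor 2, where the interval of the log2 ratio, -0.01 to 1.54, included 0. *Ncam1* was at 139 against 123 CPM in tumor 1, where the interval of the log2 ratio, -0.18 to 0.52, included 0. In tumor 2 it was at 110 against 78.8 CPM, with an interval of 0.26 to 0.70.

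Across the cells of tumor 2, *Cd9* was unevenly spread. Its Fano factor (variance over mean of UMIs at 1000 UMIs per cell) was 3.62, above 166 of 168 genes of like mean, whose median was 1.19. In tumor 1 it was 2.52, against a median of 2.48 over 12 genes. For *Ncam1* it was 1.21 and 1.06, with medians of 1.16 and 1.09 over genes of like mean.

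Around the members, 4 lists of related genes were compared between the tumors. The share of all genes called was 23.2% higher in tumor 1 and 18.7% higher in tumor 2. Of 26 other surface targets 20 were tested, of which 10 were higher in tumor 1 and 3 in tumor 2, with a median relative log2 ratio of 0.87 against 0 over all genes. The former included *Erbb3* at 12.1 and 1.03 CPM and *Epcam*, the epithelial adhesion molecule, at 1292 and 414 CPM. *Dll3*, a Notch ligand and the target of bispecific T cell engagers in this cancer, was higher in tumor 2, at 59.3 CPM (251 UMIs) in tumor 1, compared with 101 CPM (783 UMIs) in tumor 2. *Prom1* (CD133) was at 3.07 and 14.3 CPM, and *Met* had 0 and 23 UMIs.

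A list of immune ligands and protective proteins had 21 genes, of which 13 were tested, 9 were higher in tumor 1 and 2 in tumor 2, with a median relative log2 ratio of 2.20. Among the 9, *Pvr*, *Ceacam1*, *Serpinb9* and *Vsir* had 14, 14, 12 and 12 UMIs in tumor 1. In tumor 2 they had 0, 0, 0 and 1. They passed the filter of 10 UMIs through tumor 1 alone, and a count of 0 was set to 3 UMIs. The filter and this floor therefore partly set the count of 9 and the median. Not all of the 9 code for ligands that restrain immune cells: *Cd59a* codes for a complement inhibitor, *Serpinb9* for an inhibitor of granzyme B inside the cell and *Icosl* for a costimulatory ligand, at 9.93, 2.84 and 1.89 CPM in tumor 1 and 1.68, 0 and 0.516 CPM in tumor 2. *H2-T23* (Qa-1), which presents to the inhibitory receptor NKG2A, was at 98.1 and 3.48 CPM, and *Lgals9* (galectin-9) at 18.7 and 0.645 CPM. *Pvrl2* (nectin-2), a ligand of TIGIT and its relatives, was at 101 and 19.0 CPM. *Cd55* and *Lgals1* were the 2 higher in tumor 2, at 5.67 against 10.6 CPM and 3.07 against 5.42 CPM. *Lgals1* rested on 13 and 42 UMIs, with a log2 interval before centring of -1.84 to 0.11. It was at 1429 and 844 CPM in macrophage-like cells. *Icosl* rested on 8 and 4 UMIs, with an interval before centring of -0.03 to 4.06. *Cd274*, which codes for PD-L1, had 3 UMIs in tumor 1 and 0 in tumor 2, so no ratio was taken.

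Of 22 inhibitory receptors and their effectors, 7 were tested in neuroendocrine-like cells, of which 3 (*Lrp1*, *Lag3* and *Ptpn6*) were higher in tumor 1, with *Ptpn6*, the phosphatase SHP-1, at 86.3 and 20.4 CPM, and 1, *Cd200r4*, in tumor 2. A further 8 had 0 UMIs in neuroendocrine-like cells of both tumors. Of 19 partners of the members, 15 were tested, of which 5 (*Bace2*, *Cd82*, *Thbs1*, *Cd151* and *Igsf8*) were higher in tumor 1 and 3 (*St8sia2*, *Cort* and *Ptgfrn*) in tumor 2, beside 23.2% and 18.7% of all genes. *Ptgfrn* rested on 10 and 31 UMIs, with a log2 interval before centring of -1.95 to 0.31. The list of partners includes other tetraspanins and the proteins CD9 binds: *Igsf8*, a main binding partner of CD9, was at 467 and 153 CPM, *Cd81* at 762 and 399 CPM and *Cd63* at 388 and 571 CPM. The protease gene *Bace2* was at 43.5 and 0.258 CPM. *St8sia2*, an enzyme that puts polysialic acid on NCAM1, had 2 and 30 UMIs, and its relative *St8sia4* 31 and 54.

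**Figure D5:**
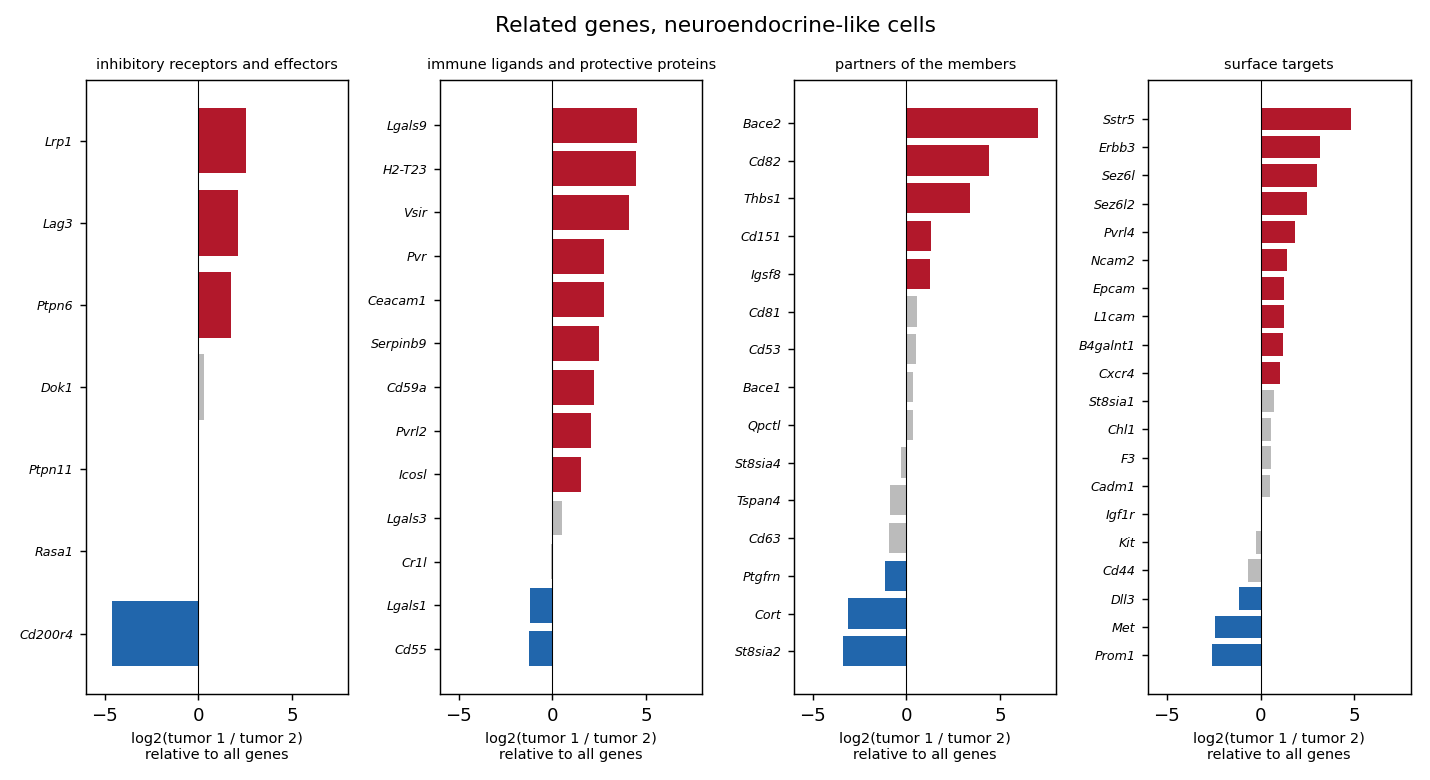
Log2 ratio of tumor 1 to tumor 2 in neuroendocrine-like cells, less the median of all genes, for the tested genes of 4 lists (bars, 1 per gene; red at least 2-fold higher in tumor 1, blue at least 2-fold higher in tumor 2, gray between). Of 13 tested immune ligands and protective proteins, 9 are at least 2-fold higher in tumor 1. Some of these passed the filter of 10 UMIs through tumor 1 alone.

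Over all 21 clusters of both tumors, the genes whose log2(CPM + 10) was most like that of a member were, for *Cd47*, *H2-T23* (r = 0.98), *Zfp36* and *S100a1* (both 0.97), and for *Cd9*, *Sqrdl* (0.97), *Krcc1* and *Tmem106c* (both 0.96). For *Cd200* they were *Palmd* and *H2-Q2* (both 0.97) and *Tspan1* (0.96), and for *Cd24a*, *Flywch2* and *Tmem107* (both 0.93) were among them. *Cd200r1* had *G430095P16Rik* (0.91), *Gas1* (0.82) and *Plekhj1* (0.81). The clusters of a tumor share its library and depth, so these values are a description. They pool both tumors, so they can restate a difference between the tumors. The genes most like *Cd47* were others within a tumor: *Arf1*, *Prkar1a* and *Spop* in tumor 2, and *Zranb1*, *Naprt* and *Cpq* in tumor 1. Within tumor 2, over its 9 neuroendocrine-like clusters, *Igsf8*, *Tprgl* and *Krcc1* (all r = 0.99) were the genes most like *Cd9*. Over the 8 neuroendocrine-like clusters of tumor 1 they were *Ndufaf7*, *Sept2* and *Ppp1r37* (all 0.95).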

How the data were processed

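Live cells of 2 tumors, each of a different TKO mouse, were captured on the 10x Chromium platform. The values the authors deposited are raw UMI counts, 1 per gene and barcode. The submitters' processing notes name Cell Ranger, Seurat and mm10; versions are not given in the sources used here, nor is the strand setting. *Sstr2*, *Ncam1* and *Cd9* overlap genes of the opposite strand, and their counts hold only if strand was used.

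Cells with more than 500 detected genes and under 10% mitochondrial UMIs were kept, and the latter removed 0. Clustering was done per tumor with Seurat 5.3.0 (R 4.3.3) on 1000 variable genes without the members and the listed genes, with 10 components and a resolution of 0.8. A cluster took another type's name if at least 3 markers and most markers of that type were 4-fold above the other cells, and was neuroendocrine-like if at least 3 markers were 2-fold above macrophage-like cells; the share of markers needed was set after seeing the data. Scrublet (scanpy 1.11.5) called 0 doublets, so doublets were kept, and cells above the 95th percentile of its score (151 and 136) were left out in an alternative. Annotation came from GENCODE M21.

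Sums, exact intervals and thinning to 1000 UMIs (seed 1) were computed with Python 3.11.15 (pandas 2.3.3, scipy 1.17.1, numpy 2.4.6), with matplotlib 3.10.9 for figures. A count of 0 was set to 3 UMIs in ratios. For TMM factors alone edgeR 4.0.16 was used; with 1 library per tumor no edgeR test was run. The ratio step was tested on simulated data: of 400 genes with a planted log2 change of 1.3 among 13116 tested, 98.0% were called and 96.8% had the true value in the interval. The changes were planted only in genes with high summed counts, and counts were drawn with Poisson error alone. These rates therefore do not cover sparse genes such as *Cd276*. Named are the members, up to 5 genes of a list with the largest ratios each way and at least 20 UMIs, ligands, receptors and modifiers of a member, the 3 genes most like a member and cell type markers; *Krt8*, *Cd81*, *Cd63* and other genes outside it were chosen after seeing values. The members and lists were chosen with earlier results of these data known. For 3 listed genes a second symbol was searched too and not counted. Alternatives are given in the closing section, and the cells without lymphocyte or macrophage marker UMIs were added after seeing the data. Some genes that the rule names are not reported here.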

Additional observations from a re-analysis of the deposited data

Results flagged for a closer look

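*Cd9* was lower in macrophage-like than in neuroendocrine-like cells of tumor 1 (log2 ratio -1.50, interval -1.66 to -1.35) and higher in tumor 2 (0.44, interval 0.29 to 0.59). It was flagged because the direction differs between the tumors. The difference was not tested over samples, since each tumor has 1 library.

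Barcodes with at most 500 detected genes, which enter no comparison, also held UMIs of the members, and were flagged because they exceed the 3 UMIs that a count of 0 allows. The 1321 such barcodes of tumor 1 held 5070 UMIs of *Cd9*, 989 of *Cd24a*, 198 of *Cd47*, 143 of *Cd200*, 61 of *Ncam1*, 14 of *Sstr2*, 8 of *Sez6* and 4 of *Cd200r1*. The 248 of tumor 2 held 300 UMIs of *Cd9*, 127 of *Cd24a*, 24 of *Cd47*, 10 of *Ncam1*, 7 of *Cd200r1* and 6 of *Sstr2*. Their *Cd9* levels were 7058 CPM in tumor 1 and 1612 CPM in tumor 2, and their *Cd200* levels 199 and 10.7 CPM.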

How the results depend on the processing

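The 3 members called higher in tumor 1 numbered 3 under all 15 alternatives, and the 3 called higher in tumor 2 numbered 2 with more than 1000 detected genes, with no centring, with mitochondrial and ribosomal protein genes out of the total, and with at least 50 UMIs; *Sstr2*, at the edge of the call, is the gene lost. The log2 ratio, relative except with no centring, ran from 3.58 to 4.28 for *Cd200* and 1.88 to 2.45 for *Cd9*. It ran from 1.46 to 1.92 for *Cd47*, -0.05 to 0.37 for *Ncam1* and, at the floor of 3 UMIs, -5.53 to -3.83 for *Cd200r1*. The upper ends for *Cd9*, *Cd47* and *Ncam1* are those with no centring. Members called higher in macrophage-like cells of tumor 1 numbered 1 with more than 200 detected genes. Cells with any of the 4 targets were 7.25% and 6.93% in tumor 1 and tumor 2 at 500 UMIs, and 28.5% and 22.4% at 2000 UMIs, so these shares are set by depth. At a resolution of 0.4, 3 members had cluster ranges that overlap between the tumors, against 5. Without cells holding lymphocyte marker UMIs, the relative log2 ratio of *Cd276* in macrophage-like cells of tumor 2, which rests on 1 UMI, turned to 0.10. With at least 50 UMIs, which leaves fewer genes, list genes higher in tumor 1 were 6 against 10 among surface targets and 4 against 9 among immune ligands and protective proteins, and those higher in tumor 2 were 0 against 1 among receptors and 0 against 3 among partners. With no centring, 0 immune ligands and protective proteins against 2 were higher in tumor 2. With more than 1000 detected genes, the relative log2 ratio of macrophage-like to neuroendocrine-like cells was -2.76 for *Cd9* in tumor 1 and 0.21 for *Cd200r1* in tumor 2, against 1.48, which ends the call of *Cd200r1*; the cause was not tested. No paired analysis was possible because each tumor has 1 library and the replicate number pairs nothing.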
